A study of Homo sapiens with 10 samples.

Results

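The human liver cancer lines Huh7 and PLC were compared in 4 of the 10 libraries of a study in which liver cancer cells received vehicle, an inhibitor of CDK4/6, an inhibitor of the nuclear exporter XPO1, or the pair of them. The 4 libraries were chosen by label: Huh7 with control (vehicle), Huh7 with the CDK4/6 inhibitor, PLC with control and PLC with the CDK4/6 inhibitor, so that each Huh7 library had a PLC partner under the same treatment. CDK4 and CDK6 are cyclin-dependent kinases that phosphorylate the RB protein and open the way to S phase. The labels give 1 library for each line and treatment, call every sample a liver cancer cell line, and name the lines only as Huh7 and PLC. No source used here gives doses, times, passage or the name of the CDK4/6 inhibitor. The other libraries were PLC with the XPO1 inhibitor (KPT330 in the titles), PLC with the combination, and a further line, 97H, under all 4 treatments. They are used below only as reference values, except that the control and CDK4/6 inhibitor libraries of 97H also entered the estimate of the spread.

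Hepatocytes secrete most plasma proteins, handle lipoproteins and bile acids, and detoxify drugs, under a network of transcription factors that includes the HNF4, FOXA, GATA and C/EBP proteins. Fetal hepatoblasts share part of that programme and also make alpha-fetoprotein and other oncofetal products, which many liver cancers express again. Lines derived from such cancers keep different parts of it, and they can take on genes of other epithelia, of mesenchyme or of the germ line.

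Levels are the authors' FPKM, fragments per kilobase of transcript scaled to library size, which can be compared between genes because they are per length. A pair of levels is given with the control library first and the CDK4/6 inhibitor library second. Differences are Huh7 minus PLC on the log2(FPKM + 1) scale, as the mean of the control pair and the CDK4/6 inhibitor pair. They understate the change of genes at low FPKM. A gene was called at an adjusted p under 0.05 with limma, which took its spread from how far line differences departed between the treatments in Huh7, PLC and 97H. No line was repeated under the same treatment, so these p-values do not measure variation between cultures of 1 line.

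Of 10452 genes tested, 2106 (20.1%) were called: 1147 (11%) were higher in Huh7 and 959 (9.18%) higher in PLC, and 3312 had an unadjusted p under 0.05. All 2106 differed in the same direction in both pairs. The way of calling favours this, because opposite differences cancel in the mean and widen the spread, so it is no separate evidence of stability. Tested genes averaged at least 1 FPKM over the 4 libraries, so a gene near 0 in 1 line entered the test through its level in the other and had to differ; for such genes the p-value, and for lists that hold them the count and median, are descriptions. A difference of at least 1 log2 unit in the same direction in both pairs, a description with no test, was found for 2097 genes (20.1%), 1129 higher in Huh7 (10.8%) and 968 higher in PLC (9.26%). In contrast, 3491 genes (33.4%) had opposite signs in the pairs, and for 47 of them both differences were at least 1. The call count depended on which library was left out: it fell without either Huh7 library and rose without either PLC library. Such a fit has 1 residual degree of freedom in place of 2. It also drops the departure of that line between treatments from the spread, and its difference is no longer the mean of the 2 pairs. Calls lost or gained in these fits, here and below, therefore do not measure dependence on a library alone.

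The PLC control had 9090 genes at or above 1 FPKM, against 10119 to 10165 in the other 3 libraries. The log2 levels of the Huh7 libraries had a Pearson r of 0.95 with each other across genes and those of the PLC libraries 0.919, while r between lines was 0.785 for control and 0.738 for the CDK4/6 inhibitor. Differences in the control pair fell with transcript GC content (Spearman rho of -0.387 across 10431 genes) and those in the CDK4/6 inhibitor pair rose with it (0.203), whereas for their mean rho was -0.116. With trends in GC content and transcript length removed together, 3436 genes were called; GC content alone was not removed. Over all genes tested the median difference was 0.17 in the control pair, -0.23 in the CDK4/6 inhibitor pair and -0.04 in the mean. Scaling by median ratios moved the pair medians to 0.04 and 0.02, and the share of calls that were higher in Huh7 from 54.5% to 60%.

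**Figure D1:**
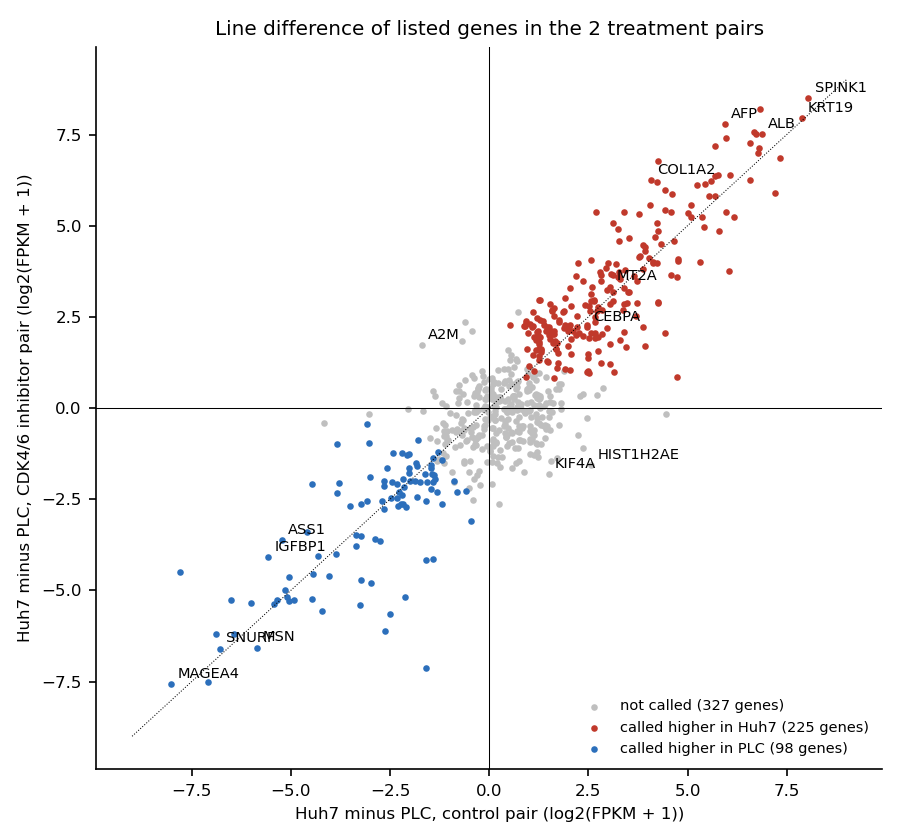
Huh7 minus PLC differences in log2(FPKM + 1) of the listed and named genes, with the control pair on the x axis and the CDK4/6 inhibitor pair on the y axis; each point is 1 gene, and the dotted line marks equal differences. Called genes lie in the quadrants of equal sign, which the way of calling favours. They run from SPINK1 at 8.04 and 8.49 to MAGEA4 at -8.01 and -7.57, while A2M, KIF4A and HIST1H2AE have opposite signs in the pairs.

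SPINK1, a secreted trypsin inhibitor found in many liver cancers, differed most in favour of Huh7. It was at 486 and 503 FPKM in Huh7 and at 0.848 and 0.398 FPKM in PLC, a log2 difference of 8.27 (SE 0.57, n = 2 pairs, limma adjusted p = 6.77e-06). KRT19, a keratin of bile duct cells and hepatic progenitors, was at 429 and 529 FPKM against 0.829 and 1.15 FPKM (log2 difference 7.91, SE 0.33, adjusted p = 5.44e-07). The fetal growth factor gene IGF2, whose annotation overlaps a readthrough gene with insulin, was at 169 and 395 FPKM against 0.515 and 0.352 FPKM (7.50, SE 0.49). For each of these genes both Huh7 libraries lay far above both PLC libraries, and the PLC libraries with the XPO1 inhibitor and the combination stayed between 0.262 FPKM (IGF2) and 1.25 FPKM (KRT19). The line 97H differed from gene to gene: KRT19 was at 479 and 602 FPKM there, and IGF2 at 0.312 and 0.427 FPKM. The other genes among the 12 with the largest difference in this direction were ALB, MT1G, FADS2, NPPB, TTR, CLDN6, UCHL1, AFP and S100A11, with differences from 7.20 (ALB) to 6.69 (S100A11). FADS2, a fatty acid desaturase, was at 463 and 471 FPKM in Huh7 and 3.58 and 1.49 FPKM in PLC. NPPB encodes a natriuretic peptide of the heart and was at 326 and 773 FPKM against 1.02 and 5.62 FPKM. UCHL1, a ubiquitin hydrolase of neurons, was at 185 and 179 FPKM against 0.704 and 0.418 FPKM.

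In the other direction MAGEA4, a cancer-testis antigen gene on the X chromosome, differed most. It was at 354 and 283 FPKM in PLC and at 0.374 and 0.497 FPKM in Huh7, a log2 difference of -7.79 (SE 0.44, limma adjusted p = 3.31e-06). C1QL1, a secreted C1q-like protein gene best known from synapses, was at 285 and 291 FPKM against 1.11 and 0.588 FPKM (-7.30, SE 0.43). MSN encodes moesin, which ties the actin cortex to the membrane, and was at 96.5 and 162 FPKM against 0.677 and 0.714 FPKM (-6.21, SE 0.37). Here too the libraries of the lines did not overlap. CRH, the hypothalamic stress hormone gene, was at 237 FPKM in the PLC control and 30.3 FPKM in the PLC CDK4/6 inhibitor library, so that its pair differences were -7.79 and -4.51. Others of the 12 were SNURF, CTAG2, MAGED1, PLPP2, PLP2, MAGEA6 and MAGEA12, from -6.69 (SNURF) to -5.30 (MAGEA12). Of these, MAGEA4, CTAG2, MAGED1, MSN, PLP2, MAGEA6 and MAGEA12 lie on the X chromosome, and the first 12 in favour of Huh7 hold no X-linked gene.

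**Figure D2:**
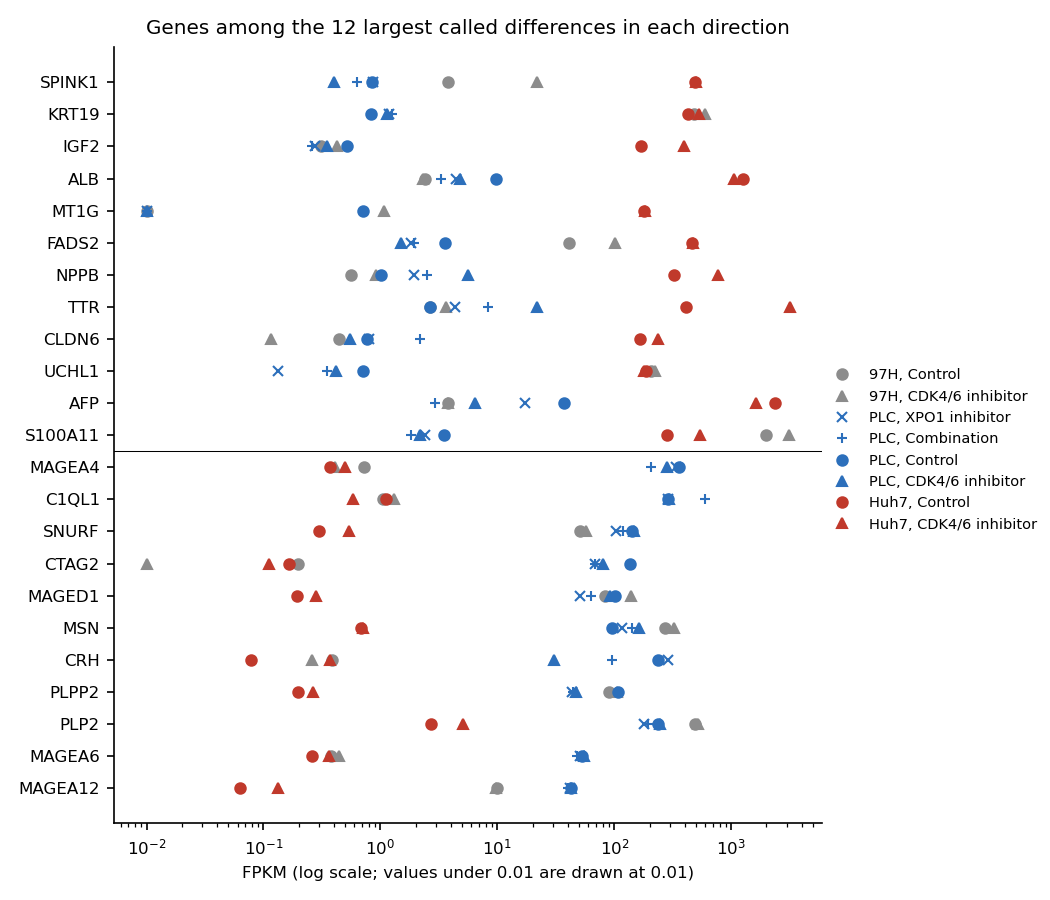
FPKM on a log axis for the genes reported here among the 12 called genes with the largest difference in each direction; red is Huh7, blue is PLC and grey is 97H, with circles for control, triangles for the CDK4/6 inhibitor, and crosses and plus signs for the later PLC libraries. Red and blue do not overlap for any gene shown, and the grey points lie nearer to Huh7 for KRT19, UCHL1, S100A11, MAGEA4, C1QL1, CTAG2, CRH and MAGEA6, nearer to PLC for IGF2, ALB, MT1G, NPPB, TTR, CLDN6, AFP, SNURF, MAGED1, MSN, PLPP2 and PLP2, and between the lines for SPINK1, FADS2 and MAGEA12.

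Plasma protein genes were mostly higher in Huh7, while among all genes tested 11% were called higher in Huh7 and 9.18% higher in PLC. Of 38 listed genes 28 were tested, of which 16 were called higher in Huh7 and 4 higher in PLC, with a median difference of 2.28 against -0.04 over all genes tested. At or above 1 FPKM were 27 listed genes in both Huh7 libraries and 19 in both PLC libraries, so count and median are in part descriptions. Albumin (ALB) was at 1261 and 1062 FPKM in Huh7 and 9.74 and 4.80 FPKM in PLC (log2 difference 7.20, SE 0.38, limma adjusted p = 3.03e-06). Alpha-fetoprotein (AFP), which neighbours ALB on chromosome 4, was at 2344 and 1641 FPKM against 37.1 and 6.49 FPKM (6.86, SE 0.50). Both Huh7 levels of either gene exceeded the highest PLC level by far. Transthyretin (TTR), a carrier of thyroid hormone, was at 407 and 3168 FPKM in Huh7 and at 2.67 and 21.7 FPKM in PLC; the CDK4/6 inhibitor library was the higher one in each line, and the pair differences were 6.80 and 7.12. The vitamin D carrier GC (5.67), the acute-phase glycoprotein genes ORM1 (4.90) and ORM2 (4.66), whose near-identical sequences may share reads, and the mineral-binding AHSG (4.56) were also higher in Huh7. PLC was not without plasma proteins: SERPINA1, the alpha-1 antitrypsin gene, was at 1673 and 1759 FPKM in PLC and 680.2 and 757 FPKM in Huh7 (-1.26, SE 0.31, adjusted p = 0.0134). AGT (angiotensinogen), SERPINA6 (the corticosteroid carrier) and A1BG were the other 3, at -1.39, -2.24 and -2.21. These 4 calls were fragile, with 0 left without the Huh7 control and 1 without the Huh7 CDK4/6 inhibitor library. AMBP, the bikunin precursor gene, was at 1598 and 1763 FPKM in Huh7 and 1925 and 1416 FPKM in PLC, and its ranges overlapped.

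The promoters of ALB and AFP are shown because both genes moved together and both hold the letters GTTAAT. The sequences are from RefSeq (GRCh38.p14), the 150 bases before the start site, plus strand, with ALB at chr4:73404137-73404286 and AFP at chr4:73436071-73436220, and the capitals mark GTTAAT.
ALB: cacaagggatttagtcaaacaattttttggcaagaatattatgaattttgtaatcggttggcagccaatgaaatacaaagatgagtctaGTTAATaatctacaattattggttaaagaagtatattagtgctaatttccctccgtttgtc
AFP: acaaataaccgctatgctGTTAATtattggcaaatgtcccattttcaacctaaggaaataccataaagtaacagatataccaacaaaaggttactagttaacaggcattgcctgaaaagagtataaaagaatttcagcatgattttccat
Searched on both strands, GTTAAT was found in 3.52% of all 35116 promoters of that table over the same 150 bases. It was found in 5.09% of 1356 promoters of genes called higher in Huh7, in 1.26% of 1107 promoters of genes called higher in PLC and in 1.78% of 9967 promoters of genes not called. Among called genes of the plasma protein list that have a promoter entry it was present in 4 of 14 (AFP, ALB, SERPINA1 and SERPINA6), the last 2 of which were higher in PLC. The groups also differed in base composition, with a median of 10 CG dinucleotides per window for genes higher in Huh7, 14 for genes higher in PLC and 14 for genes not called. A match is a description of the letters and was not tested as a binding site.

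Clotting and complement genes followed the same direction. Of 36 listed genes 24 were tested, 17 were called higher in Huh7 and 1 higher in PLC, with a median of 2.27. Among all genes tested the shares were 11% and 9.18%. At or above 1 FPKM were 25 listed genes in both Huh7 libraries and 12 in both PLC libraries, so count and median are in part descriptions. With the filter set over all 10 libraries, 16 of 23 were called higher in Huh7 and 1 higher in PLC. The fibrinogen beta chain gene FGB was at 255 and 269 FPKM in Huh7 and 2.83 and 2.25 FPKM in PLC (log2 difference 6.22, SE 0.42, limma adjusted p = 6.33e-06). The alpha and gamma chains, FGA and FGG, which assemble with it, differed less: FGG was at 107 and 129 FPKM in Huh7 and 34.7 and 31.0 FPKM in PLC (1.81), and FGA at 200.1 and 497 FPKM against 82.8 and 62.6 FPKM (2.12). In PLC, FGB was at 2.83 FPKM at most while its partner chains were at 31.0 FPKM or more, whereas in Huh7 the 3 chains lay within 107 to 497 FPKM. The lectin pathway protease gene MASP1 (3.99), the fibrinolysis inhibitor gene CPB2 (4.05) and the complement component genes C5 (3.64) and C1S (3.48) were also higher in Huh7. C8G, a chain of complement component 8, was the gene higher in PLC, at 33.5 and 23.2 FPKM against 1.37 and 0.515 FPKM (-3.93, SE 0.50, adjusted p = 0.000292). Prothrombin (F2) and factor XII (F12) were not called, at 33.2 and 24.7 FPKM against 43.4 and 13.6 FPKM for F2. Without the Huh7 CDK4/6 inhibitor library, 11 genes were called higher in Huh7.

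Genes of lipoprotein assembly and turnover separated within the list. Of 25 tested of 31, 12 were called higher in Huh7 and 1 higher in PLC, with a median of 1.05. These counts compare with 11% and 9.18% among all genes tested. MTTP, the transfer protein that loads lipid onto apolipoprotein B, was at 71.8 and 62.1 FPKM in Huh7 and 0.411 and 0.124 FPKM in PLC (log2 difference 5.75, SE 0.44, limma adjusted p = 1.43e-05). APOC2 (the lipoprotein lipase cofactor, 5.67) and PLTP (phospholipid transfer, 4.94) were higher in Huh7 as well. APOA1 was at 463 and 427 FPKM against 77.9 and 55.3 FPKM (2.74). APOB itself was at 40.6 and 65.2 FPKM in Huh7 and 28.4 and 64.4 FPKM in PLC and was not called, and APOE was at 633 and 1472 FPKM against 1135 and 1070 FPKM. APOM was the gene higher in PLC (-1.83, SE 0.55, adjusted p = 0.0356). It lost its call without either Huh7 library, where 8 and 9 genes were called higher in Huh7.

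The transcription factors of the hepatocyte network had a smaller median difference, 0.38, than the plasma protein genes, a description with no test. Of 24 tested, 8 were called higher in Huh7 and 1 higher in PLC, against 11% and 9.18% among all genes tested. HNF4A was at 56.4 and 47.1 FPKM in Huh7 and 47.8 and 41.2 FPKM in PLC (log2 difference 0.21, SE 0.41, limma adjusted p = 0.779). GATA4 was at 19.6 and 14.3 FPKM against 20.4 and 14.0 FPKM. Both genes had overlapping levels in the lines, which does not show that they are equal. The largest differences were in GATA6, at 35.1 and 54.7 FPKM against 0.432 and 1.32 FPKM (4.62, SE 0.44, adjusted p = 4.94e-05), and in CEBPA, at 216 and 147 FPKM against 38.5 and 30.9 FPKM (2.33, SE 0.35, adjusted p = 0.000762). The nuclear receptor genes NR1H4 (the bile acid receptor) and NR1I2 (the pregnane X receptor) were at 1.78 to 3.72 FPKM in Huh7 and at most 0.0631 FPKM in PLC. CEBPB was higher in PLC, at 124 and 79.8 FPKM against 34.9 and 42.7 FPKM (-1.34, adjusted p = 0.0194). Its call was lost under 4 of the 16 alternatives, and without a Huh7 library 5 and 4 factors were called higher in Huh7.

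Drug metabolism, transport and intermediary metabolism showed genes in both directions, as did all genes tested (11% called higher in Huh7 and 9.18% higher in PLC). Of 32 tested genes of cytochrome P450 and conjugation enzymes 12 were called higher in Huh7 and 4 higher in PLC. GSTM1, a glutathione transferase gene that is deleted in many human genomes, was at 36.1 and 46.4 FPKM in Huh7 and at 0.0905 and 0 FPKM in PLC. UGT1A1, the bilirubin glucuronidation enzyme, was at 1.40 and 2.51 FPKM in Huh7 and at 12.5 and 177 FPKM in PLC (log2 difference -4.08, SE 0.67, limma adjusted p = 0.00138). Its last exons are shared with other UGT1A genes, and its PLC level was far higher with the CDK4/6 inhibitor than without. The retinoic acid hydroxylase CYP26A1 was also higher in PLC, at 7.49 and 14.3 FPKM against 0.158 and 0.262 FPKM (-3.24). Among bile acid genes and transporters 7 of 14 tested were called higher in Huh7 and 4 higher in PLC. The glucose transporter SLC2A2 of hepatocytes was at 19.9 and 54.9 FPKM in PLC and 1.19 and 0.327 FPKM in Huh7 (-4.33, SE 0.54), while the bile acid synthesis enzyme CYP27A1 was higher in Huh7 (2.75). In the urea cycle, amino acid and glucose list 5 of 19 were called in each direction. ASS1, the argininosuccinate synthase of the urea cycle, was at 977 and 363 FPKM in PLC and 25.0 and 28.5 FPKM in Huh7 (-4.43, SE 0.50, adjusted p = 0.000135). Its partner enzyme ASL was at 23.1 and 22.7 FPKM in Huh7 and 39.6 and 18.7 FPKM in PLC and was not called. NAGS, which makes the activator of the first urea cycle step, was higher in Huh7 by 2.44. Without the Huh7 control or the Huh7 CDK4/6 inhibitor library the last list held 3 and 2 calls higher in Huh7 and 1 and 2 higher in PLC, the bile acid list 4 and 4 higher in Huh7 and 2 and 1 higher in PLC, and the P450 list 2 higher in PLC in each fit.

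Among oncofetal, progenitor and epithelial genes more were called higher in Huh7 than in PLC, and many were not called. The shares among all genes tested were 11% higher in Huh7 and 9.18% higher in PLC. Of 21 tested oncofetal genes 10 were called higher in Huh7 and 1 higher in PLC. GPC3 (glypican-3, a cell surface proteoglycan of fetal liver and liver cancer) was at 192 and 281 FPKM in Huh7 and 3.46 and 2.98 FPKM in PLC (log2 difference 5.79, SE 0.43, limma adjusted p = 1.21e-05). DLK1 (a hepatoblast membrane protein), BEX1 and PEG10 were higher by 2.84, 4.11 and 2.74, and the stem cell factor SALL4 was lower in Huh7 (-2.40). Of 17 tested biliary, progenitor and keratin genes 6 were called higher in Huh7, among them PROM1 (CD133, 3.96) and SOX4 (3.12), and 1, KRT23, higher in PLC (-3.98). KRT18, the keratin of hepatocytes, was at 1526 and 1964 FPKM in Huh7 and 884 and 1970 FPKM in PLC and was not called. Of 32 tested genes of epithelial junctions 18 were called higher in Huh7 and 2 higher in PLC. At or above 1 FPKM were 30 listed junction genes in both Huh7 libraries and 18 in both PLC libraries, so this count is in part a description. CLDN6, a claudin of fetal epithelia, was at 167 and 236 FPKM against 0.772 and 0.547 FPKM (6.91). E-cadherin (CDH1) was at 15.8 and 37.0 FPKM against 1.81 and 1.27 FPKM (3.32, adjusted p = 0.000742), and N-cadherin (CDH2), which hepatocytes also make, at 36.7 and 70.0 FPKM against 2.28 and 6.79 FPKM (3.36). The connexin gene of hepatocyte gap junctions, GJB1, was higher in PLC, at 238 and 147 FPKM against 22.3 and 9.71 FPKM (-3.57). Leaving out either Huh7 library left 11 and 10 junction genes called higher in Huh7 and 3 and 4 biliary or progenitor genes, and without the PLC CDK4/6 inhibitor library the latter were 11.

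Most tested mesenchymal, contractile and matrix genes were called higher in Huh7 at the same time. Over all genes tested 11% were called higher in Huh7 and 9.18% higher in PLC. Vimentin (VIM) was at 534 and 650 FPKM in Huh7 and 2.64 and 9.88 FPKM in PLC (log2 difference 6.55, SE 0.44, limma adjusted p = 6.12e-06). TAGLN (transgelin) and CNN1 (calponin), actin-binding proteins of smooth muscle, were higher by 6.41 and 5.90, and the calcium-binding S100A6 by 6.43. Of 31 tested genes in this list 20 were called higher in Huh7 and 4 higher in PLC. The latter were MSN, LGALS1 (galectin-1), the receptor kinase gene AXL and the transcription factor gene TWIST2. LGALS1 was at 84.0 and 319 FPKM in PLC and 12.8 and 3.59 FPKM in Huh7 (-4.37, SE 0.62). MYL9, a myosin light chain, was at 160 and 218 FPKM in Huh7 and 75.2 and 347 FPKM in PLC, with overlapping ranges. Of 39 tested genes of the extracellular matrix and its proteases 30 were called higher in Huh7 and 0 higher in PLC. By limma, 31 of the 39 had an unadjusted p under 0.05. At or above 1 FPKM were 36 listed matrix genes in both Huh7 libraries and 17 in both PLC libraries. Genes under 1 FPKM in PLC, such as COL5A2 and COL1A2, passed the filter through Huh7 alone, so these counts are in part descriptions. With the filter set over all 10 libraries, 25 of 41 were called higher in Huh7 and 0 higher in PLC. The collagen gene COL5A2 was at 58.1 and 132 FPKM against 0.153 and 0.598 FPKM (6.03), and the cartilage matrix gene MATN3 at 57.8 and 274 FPKM against 0.0838 and 2.27 FPKM (6.08). COL1A2 was at 16.2 and 77.8 FPKM in Huh7 and 0.0240 and 0.0394 FPKM in PLC. The protease inhibitor genes TIMP1 (5.20) and TIMP3 (5.21) and the adhesive glycoprotein gene THBS1 (4.65) were higher too. In each of the 6 matrix genes named here the Huh7 CDK4/6 inhibitor library was above the Huh7 control. Without 1 Huh7 library 24 and 21 matrix genes were called higher in Huh7, and 13 and 15 mesenchymal genes. Summed over 6 fixed mesenchymal or stellate cell markers the level was 545 and 674 FPKM in Huh7 and 3.29 and 10.3 FPKM in PLC, most of it VIM. PDGFRB, the receptor of stellate cells in that list, was at 1.94 and 4.34 FPKM in Huh7. Whether other cells contributed was not tested.

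**Figure D3:**
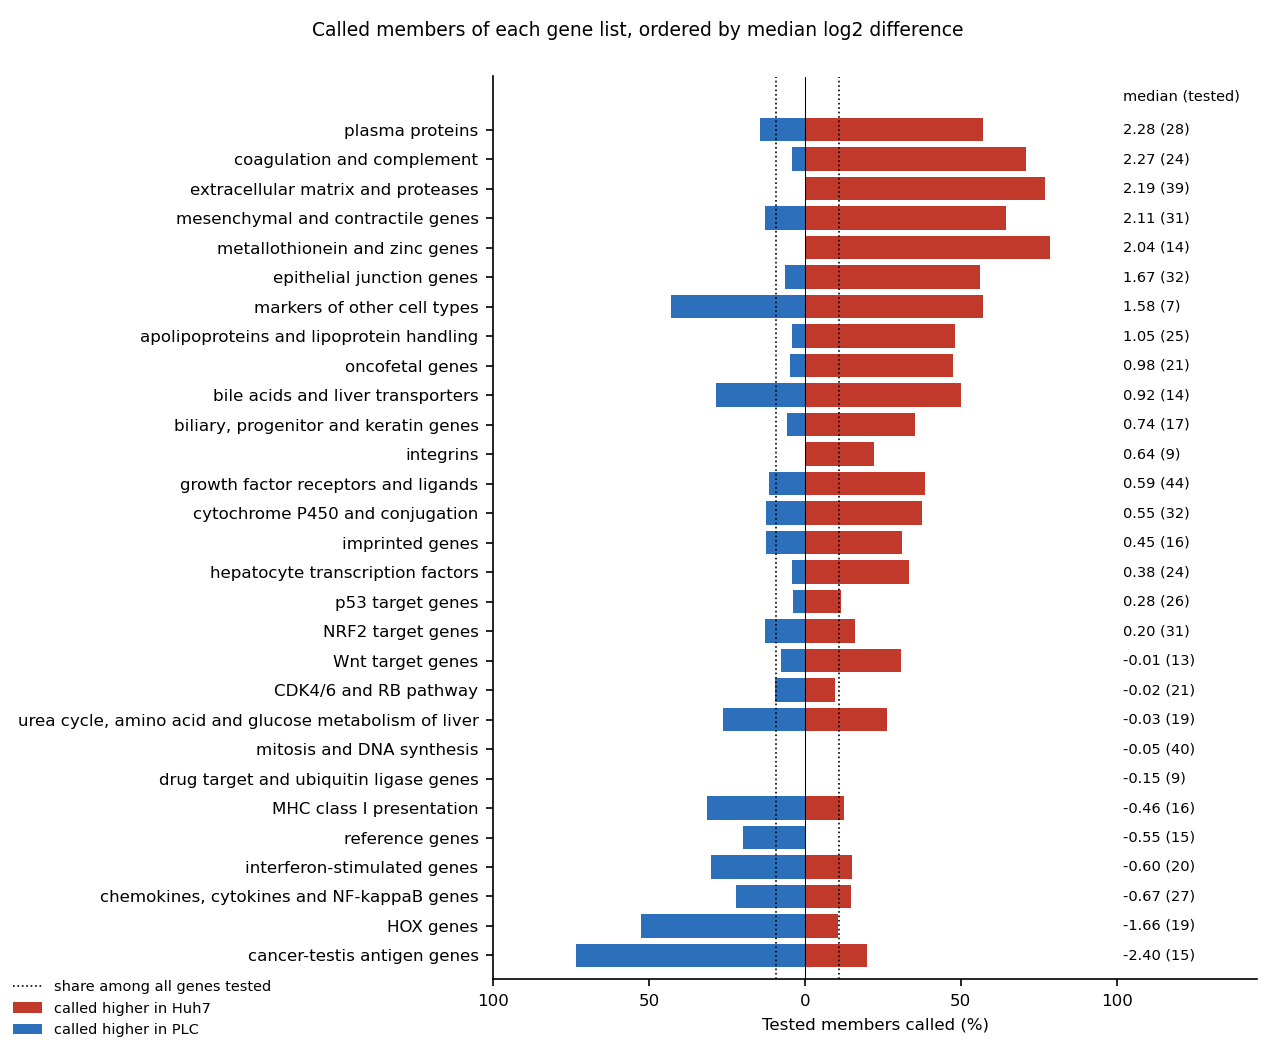
Share of the tested members of each gene list that were called higher in Huh7 (red, to the right) or higher in PLC (blue, to the left), with the median log2 difference and the number tested at the right edge; dotted lines mark the shares among all genes tested, 11% and 9.18%. Plasma protein, coagulation, matrix, mesenchymal and metallothionein lists extend to the right, and the HOX and cancer-testis lists to the left.

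The metallothionein genes, small zinc- and copper-binding proteins clustered on chromosome 16, included members higher in Huh7 and members near 0 in PLC. All 8 tested genes of 9 in the table were called higher in Huh7, but MT1A, MT1E, MT1F, MT1G, MT1H and MT1M were under 1 FPKM in PLC and passed the filter through Huh7 alone, so that count is a description. MT2A was at 603 and 428 FPKM in Huh7 and 71.9 and 41.6 FPKM in PLC (log2 difference 3.19, SE 0.43, limma adjusted p = 0.000393). MT1X was at 221 and 246 FPKM against 57.7 and 49.8 FPKM (2.10, SE 0.44). MT1G was at 179 and 183 FPKM against 0.704 and 0 FPKM, and MT1M at 41.3 and 30.0 FPKM in Huh7 and listed at 0 in all 4 PLC libraries. The members are similar in sequence, so reads may be split between them. Zinc transporters were not uniform: SLC39A14 was at 82.4 and 83.4 FPKM in Huh7 and 34.1 and 78.6 FPKM in PLC and was not called, whereas SLC39A4, SLC39A8 and SLC30A10 were called higher in Huh7 at levels of 0.945 to 5.21 FPKM. Metallothionein genes are switched on by the zinc sensor MTF1 through metal response elements, and the MT2A promoter is shown for that reason. It spans chr16:56608434-56608583 on the plus strand, RefSeq, GRCh38.p14, and the capitals mark TGCGCNC. Only these letters were searched, so other forms of the element are neither marked nor counted.
MT2A: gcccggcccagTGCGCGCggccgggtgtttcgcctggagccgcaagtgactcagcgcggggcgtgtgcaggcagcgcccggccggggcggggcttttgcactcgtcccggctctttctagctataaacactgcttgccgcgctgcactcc
The letters were present on either strand in 3 of 3 called MT1 and MT2 genes with a promoter entry (MT1H, MT1X and MT2A). They were also present in 12.1% of all promoters of the same length, in 12.8% of those of genes called higher in Huh7, in 17.5% for genes higher in PLC and in 19.4% for genes not called.

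Among cancer-testis and HOX genes most calls were higher in PLC, with exceptions in each list. Over all genes tested 9.18% were called higher in PLC and 11% higher in Huh7. Of 52 listed cancer-testis antigen genes, which are normally read in testis and are mostly X-linked, 15 passed the filter on low values. Of these, 11 were called higher in PLC and 3 higher in Huh7, with a median of -2.39. Most of these genes were near 0 in 1 line, so the count is a description. With the filter set over all 10 libraries, 12 were tested, 9 were called higher in PLC and 1 higher in Huh7, with a median of -4.84. Next to MAGEA4, the genes CTAG2 (137 and 80.6 FPKM in PLC, 0.164 and 0.111 FPKM in Huh7), MAGEA6 (53.2 and 55.4 FPKM against 0.261 and 0.363 FPKM) and MAGEA12 (42.3 and 42.4 FPKM against 0.0632 and 0.133 FPKM) were higher in PLC. MAGEA3 and MAGEA6 are near-identical copies, and CSAG1 lies beside MAGEA12, so the level of a single one is uncertain. The exceptions were MAGEB2, at 42.7 and 37.1 FPKM in Huh7 and 0.618 and 1.33 FPKM in PLC (log2 difference 4.39, SE 0.45, limma adjusted p = 7.99e-05), CT83 and MAGEA8. In 97H, MAGEA3 (21.6 and 19.9 FPKM) and MAGEA12 (9.90 and 9.66 FPKM) were detected and MAGEA6 was at 0.376 and 0.439 FPKM. The promoter of MAGEA6 is shown because its line difference was among the steadiest, -5.42 and -5.37 in the pairs. It spans chrX:152769690-152769839 on the minus strand, RefSeq, GRCh38.p14, and the capitals mark CCGGAA, the core letters bound by ETS factors.
MAGEA6: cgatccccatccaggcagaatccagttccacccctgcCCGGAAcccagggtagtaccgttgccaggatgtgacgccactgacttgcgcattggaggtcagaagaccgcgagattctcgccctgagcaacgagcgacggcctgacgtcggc
On either strand CCGGAA was present in 4 of 11 called cancer-testis genes with an entry (CT83, MAGEA3, MAGEA6 and SAGE1). It was present in 20.5% of promoters of genes called higher in PLC, in 20.1% of those of genes not called, in 7.67% of those of genes higher in Huh7 and in 11.1% of all promoters. The MAGEA6 window holds 13 CG dinucleotides, against 2 for ALB and 1 for AFP.

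HOX genes encode the homeodomain factors that record position along the body axis and lie in 4 clusters. Of 39 listed, 19 were tested, 10 were called higher in PLC and 2 higher in Huh7, with a median of -1.66. Among all genes tested the shares were 9.18% and 11%, so the 2 are near the latter. HOXD9 was at 23.2 and 9.81 FPKM in PLC and 0 and 0.0307 FPKM in Huh7, and HOXA4 at 12.8 and 6.13 FPKM against 0.713 and 0.916 FPKM (log2 difference -2.45, SE 0.43). HOXD8, HOXD9, HOXD11 and HOXB4 were under 0.16 FPKM in Huh7 and passed the filter through PLC alone, so the count and median are descriptions. With the filter set over all 10 libraries the median was -0.60, with 10 of 22 called higher in PLC and 0 higher in Huh7. By cluster, 4 of 6 tested HOXA genes, 2 of 2 HOXB genes and 3 of 4 HOXD genes were called higher in PLC. The HOXC cluster differed from gene to gene: HOXC8 was called higher in PLC, HOXC4 and HOXC5 higher in Huh7, and HOXC10 was at 22.0 and 24.9 FPKM in Huh7 and 22.0 and 14.0 FPKM in PLC. Without 1 Huh7 library 5 and 6 HOX genes were called higher in PLC, and without the Huh7 CDK4/6 inhibitor library none was called higher in Huh7.

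**Figure D4:**
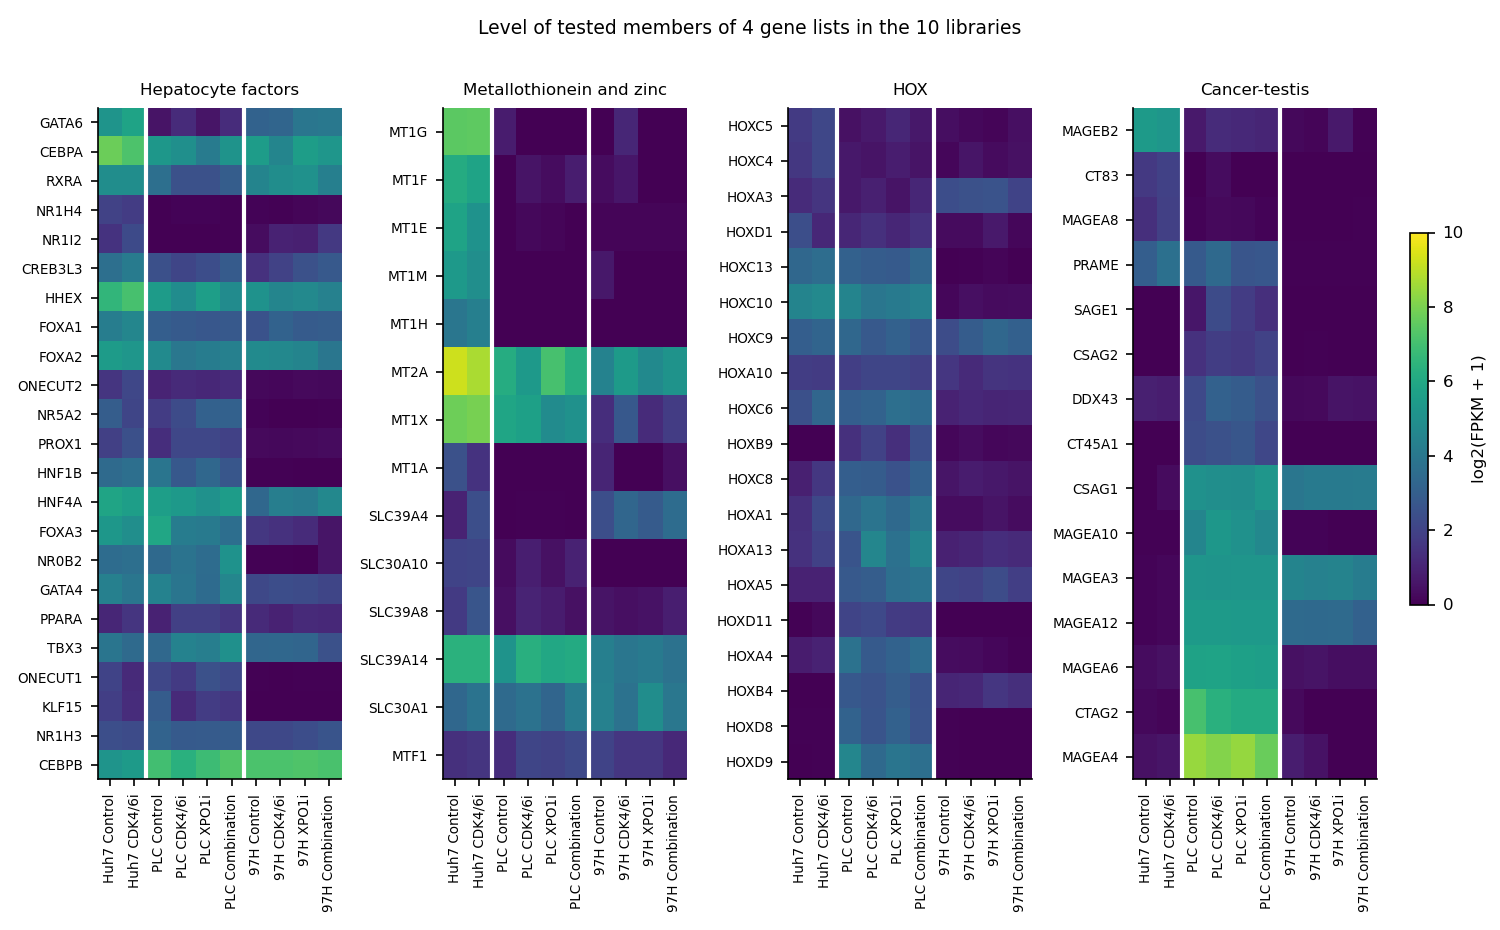
Level in log2(FPKM + 1) of the tested members of 4 gene lists that are reported here, in the 10 libraries, each panel ordered by the Huh7 minus PLC difference; white lines separate Huh7, PLC and 97H. HNF4A and GATA4 are at like levels in the Huh7 and PLC columns, MT1G, MT1M and MT1H are bright in Huh7 only among the 4 compared libraries, and MAGEA4, CTAG2 and MAGEA6 are bright in all 4 PLC libraries.

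Imprinted genes, of which 1 parental copy is normally silent, included some of the largest differences in each direction. SNURF and SNRPN share a transcript on chromosome 15, and their reads cannot be told apart with certainty. SNURF was at 142 and 148 FPKM in PLC and 0.298 and 0.538 FPKM in Huh7 (log2 difference -6.69, SE 0.38, limma adjusted p = 3.31e-06). SNRPN was at 22.2 and 24.0 FPKM against 0.0770 and 0.0719 FPKM. In the opposite direction, MEST was at 25.0 and 44.9 FPKM in Huh7 and 0.0871 and 0.111 FPKM in PLC (4.97, SE 0.47), beside IGF2, DLK1, PEG10 and GRB10. The list is to be read against all genes tested, of which 11% were called higher in Huh7 and 9.18% higher in PLC. Of 16 tested, 5 were called higher in Huh7 and 2 higher in PLC, and the former were 3 without either Huh7 library and 8 without the PLC CDK4/6 inhibitor library.

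Growth factor genes were called in both directions, as were all genes tested (11% higher in Huh7 and 9.18% higher in PLC). Of the insulin-like growth factor binding proteins, which hold IGF ligands in the circulation, 5 of 6 tested were called higher in Huh7 and 1, IGFBP1, higher in PLC. IGFBP2 was at 15.3 and 15.0 FPKM in Huh7 and 0.119 and 0.147 FPKM in PLC (log2 difference 3.83, SE 0.43, limma adjusted p = 0.000141), while IGFBP1 was at 0.629 and 0.508 FPKM against 76.1 and 24.6 FPKM (-4.83, SE 0.54, adjusted p = 0.000133). IGFBP2 and IGFBP6 were under 1 FPKM in both PLC libraries, and IGFBP1 was in both Huh7 libraries. These genes passed the filter through the other line, so the count in this family and their p-values are descriptions. FGF19, the ileal hormone that restrains bile acid synthesis, was at 15.7 and 16.3 FPKM in Huh7 and 0.0309 and 0 FPKM in PLC, and its co-receptor KLB was also higher in Huh7 (1.74, adjusted p = 0.0455). The EGF receptor ligands AREG (-2.33) and EREG (-2.77) and the endothelial factor VEGFB (-2.92) were higher in PLC, whereas HBEGF (1.61) was higher in Huh7. VEGFA was at 17.1 and 26.6 FPKM against 18.5 and 32.9 FPKM and was not called. Of the 44 tested genes of the list, 17 were called higher in Huh7 and 5 higher in PLC, and without either Huh7 library 9 and 8 were called higher in Huh7 and 2 and 3 higher in PLC. Among Wnt targets and modulators the antagonist DKK1 was at 187 and 173 FPKM in Huh7 and 6.00 and 13.5 FPKM in PLC (4.17, SE 0.41), and LEF1, a nuclear partner of beta-catenin, was at 3.70 and 3.46 FPKM in PLC and 0.0531 and 0 FPKM in Huh7.

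Of 16 tested genes of MHC class I presentation 5 were called higher in PLC and 2, ERAP1 and PSMB8, higher in Huh7. HLA-B was at 8.77 and 9.79 FPKM in PLC and 0.981 and 0.679 FPKM in Huh7 (log2 difference -2.49, SE 0.47, limma adjusted p = 0.00304). HLA-C was also higher in PLC, by -1.89 on the same scale, and the peptide transporter TAP1 by -1.72. HLA genes are polymorphic, and reads of an allele unlike the reference may go uncounted. Of 20 tested interferon-stimulated genes 6 were called higher in PLC and 3 higher in Huh7. Among all genes tested 9.18% were called higher in PLC and 11% higher in Huh7. The 2 class I and 3 interferon-stimulated genes higher in Huh7 are near the latter share. IFITM3, an antiviral membrane protein, was at 2185 and 848 FPKM in PLC and 158 and 204 FPKM in Huh7 (-2.92, SE 0.43, adjusted p = 0.000747), and IFI35 differed by -4.18, while MX2 (3.33) and UBE2L6 (2.67) were higher in Huh7. ISG15 was at 516 and 147 FPKM in PLC and 62.8 and 130 FPKM in Huh7 and was not called (adjusted p = 0.0745). Of 27 tested chemokine, cytokine and NF-kappaB genes 6 were called higher in PLC, among them CCL15 (-3.43) and CXCL5 (-2.89), and 4 higher in Huh7, among them CX3CL1 (2.77) and CXCL6 (2.60). Without either Huh7 library, 2 class I genes were called higher in PLC and 0 higher in Huh7 in each fit, and without the PLC CDK4/6 inhibitor library 8 were higher in PLC. Calls of interferon-stimulated genes higher in PLC were 3 without the Huh7 control and 10 without the PLC CDK4/6 inhibitor library, and those higher in Huh7 were 1 without either Huh7 library. Cytokine genes called higher in PLC were 2 without the Huh7 CDK4/6 inhibitor library and 12 without the PLC control.

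Genes of mitosis and DNA synthesis held no called difference between the lines. Of 40 tested genes of mitosis and DNA synthesis limma called 0 in either direction, against 20.1% among all genes tested, and 2 had an unadjusted p under 0.05. The median of the list was 0.71 in the control pair and -0.81 in the CDK4/6 inhibitor pair, and -0.05 in the mean. Opposite pair differences cancel in the mean and widen the spread that limma used. The 0 calls therefore do not show that the lines are alike in these genes. The mitotic cyclin gene CCNB2 was at 51.1 and 15.4 FPKM in Huh7 and 28.0 and 29.5 FPKM in PLC. The depolymerising kinesin gene KIF2C was at 30.9 and 11.8 FPKM in Huh7 and 18.1 and 19.2 FPKM in PLC. In these examples the Huh7 level was lower with the CDK4/6 inhibitor than with control and the PLC level was not; with 1 library each, the difference between the lines in that response was not tested. Without the PLC control 7 genes of the list were called higher in PLC, and without the PLC CDK4/6 inhibitor library 12 were called higher in Huh7 and 1 higher in PLC. In the CDK4/6 and RB pathway 2 of 21 were called in each direction, close to the 20.1% called among all genes tested. CCND3 (cyclin D3) was at 35.2 and 46.7 FPKM in PLC and 6.81 and 6.65 FPKM in Huh7 (log2 difference -2.43, SE 0.38, limma adjusted p = 0.00109). The CDK4/6 inhibitor protein gene CDKN2B was at 11.1 and 27.9 FPKM in Huh7 and 0.145 and 3.02 FPKM in PLC (3.12, SE 0.50, adjusted p = 0.00122). CCND1 (1.23, adjusted p = 0.0494) and CDKN2C (-1.43, adjusted p = 0.0459) passed narrowly and lost their calls under 9 and 5 of the 16 alternatives. Genes of the pathway called higher in Huh7 and in PLC were 0 and 1 without the Huh7 control, 0 and 0 without the Huh7 CDK4/6 inhibitor library, 1 and 6 without the PLC control, and 6 and 4 without the PLC CDK4/6 inhibitor library. Of the 9 tested genes of the inhibitors' targets and of the CRBN and VHL ubiquitin ligases limma called 0, and 0 had an unadjusted p under 0.05; DDB1, an adaptor of the CRBN ligase, was at 244 and 263 FPKM in Huh7 and 238 and 190 FPKM in PLC. Without the PLC control 4 of them were called higher in PLC. Their pair medians were 0.37 and -0.75, so their 0 calls have the same limit.

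Stress and housekeeping genes are to be read against the 20.1% called among all genes tested: the p53 list was below it (15.4%), the reference genes were close to it (3 of 15), and of the NRF2 list 9 of 31 were called. AKR1C3, a steroid reductase gene with close paralogs, was at 45.0 and 94.3 FPKM in PLC and 1.47 and 1.03 FPKM in Huh7 (log2 difference -4.89, SE 0.45, limma adjusted p = 3.94e-05), and the glutathione peroxidase gene GPX2 was higher in Huh7, at 93.5 and 36.4 FPKM against 3.93 and 4.04 FPKM (3.58). Of 31 tested NRF2 target genes 5 were called higher in Huh7 and 4 higher in PLC; the former were 2 without either Huh7 library and 12 without the PLC CDK4/6 inhibitor library. GDF15, a stress-induced cytokine in the p53 list, was at 259 and 190 FPKM in PLC and 21.7 and 28.6 FPKM in Huh7 (-3.10, SE 0.36), and the kinase gene PLK2 was higher in Huh7 (4.17). Among 15 genes often used as references, 3 were called higher in PLC and 0 higher in Huh7, 4 having an unadjusted p under 0.05 by limma. PGK1, a glycolytic kinase gene on the X chromosome, was at 977 and 886 FPKM in PLC and 103 and 77.3 FPKM in Huh7 (-3.37, SE 0.29, adjusted p = 2.82e-05), and HPRT1 differed by -2.08; without the Huh7 CDK4/6 inhibitor library 1 of the 3 calls was left. ACTB was at 2669 and 1967 FPKM in Huh7 and 2386 and 1936 FPKM in PLC and was not called.

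Genes near 0 in 1 line were more numerous for PLC. Under 0.1 FPKM in both PLC libraries were 255 tested genes, of which 31 were at or above 10 FPKM in both Huh7 libraries. Under 0.1 FPKM in both Huh7 libraries were 97 tested genes, of which 9 were at or above 10 FPKM in both PLC libraries. Such genes passed the filter through the other line, so the number of calls among them is not read. With the highest levels in Huh7 were CCDC80, CNN1, DPYSL3 (39.9 and 72.2 FPKM), COL1A2, GSTM1, ARSE (42.5 and 38.9 FPKM), SLC17A9 (35.9 and 39.2 FPKM) and MT1M. With the highest levels in PLC were KRTAP3-1, NLRP2 (34.0 and 37.9 FPKM), CALB1 (31.2 and 37.4 FPKM), MAGEA10 (22.1 and 38.7 FPKM), SNRPN, NKX1-2, SPESP1 and VAT1L. KRTAP3-1, a hair keratin-associated gene, was at 2.02 FPKM in the PLC control and 138 FPKM in the PLC CDK4/6 inhibitor library, and NKX1-2 at 3.55 and 38.9 FPKM, so that a single library carried most of their difference.

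The PLC libraries that received the XPO1 inhibitor or both drugs were not used to choose genes. Of the 1129 genes at least 1 log2 unit higher in Huh7 in both pairs, 884 (78.3%) were at least 1 unit below both Huh7 libraries in both later PLC libraries. Of the 968 higher in PLC, 589 (60.8%) were at least 1 unit above both Huh7 libraries there. These libraries differ from the compared ones in treatment and are of the same line. They were set against the same Huh7 libraries that chose the genes, so the shares are not an independent check. In 97H with control and the CDK4/6 inhibitor, the mean level lay nearer to PLC than to Huh7 for 717 (63.5%) of the genes higher in Huh7 and for 390 (40.3%) of those higher in PLC. The filter on low values used Huh7 and PLC only, and its part in the 97H shares was not tested.

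The labelled tissue was checked against fixed markers. All 10 hepatocyte markers were at or above 1 FPKM in each of the 4 libraries, and they summed to 4533 and 7641 FPKM in Huh7 and 2355 and 2388 FPKM in PLC. SERPINA1 made up most of the PLC sums, at 1673 and 1759 FPKM, followed by APOA2 at 487 and 430 FPKM. ALB, FGB and AHSG were at most 9.88 FPKM in PLC. TTR made up most of the difference between the Huh7 sums. The 4 fetal liver markers summed to 2711 and 2324 FPKM in Huh7 and 41.1 and 9.86 FPKM in PLC. The 5 cholangiocyte markers summed to 474 and 582 FPKM against 14.5 and 29.8 FPKM, KRT19 making up most of the former. Endothelial markers summed to at most 1.39 FPKM in any of the 4 libraries. Leukocyte markers summed to 4.15 and 10.7 FPKM in Huh7 and 22.7 and 64.2 FPKM in PLC, of which the lysosomal protein gene CD68 gave 2.77 and 8.55 FPKM and 22.7 and 64.0 FPKM.

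Calls were not spread evenly over the chromosomes. On the X chromosome 76 of 338 tested genes (22.5%) were called higher in PLC and 39 (11.5%) higher in Huh7, against 9.18% and 11% among all genes. Chromosome 21 followed with 18 of 95 (18.9%) called higher in PLC, chromosome 11 with 105 of 624 (16.8%) and chromosome 15 with 53 of 344 (15.4%). The median difference was -0.46 on chromosome 15 and -0.31 on the X chromosome. Chromosome 4, which carries ALB, AFP, GC and the fibrinogen genes, had the highest share called higher in Huh7, 69 of 351 (19.7%), and a median of 0.34. On chromosome 9 the shares were 13.4% and 3.59% and the median was 0.39. Over all genes tested the pair medians were 0.17 and -0.23, control pair first. On chromosomes 4 (0.76 and 0.02) and 9 (0.53 and 0.26) both pair medians lay above these values. On chromosomes 11 (-0.09 and -0.55), 15 (-0.125 and -0.79), 21 (0.07 and -0.63) and X (-0.02 and -0.59) both lay below them. On some other chromosomes, such as chromosome 2 (0.38 and -0.38), the pair medians lay on opposite sides of them. Gene copy number was not measured here, and its part in these shares was not tested.

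**Figure D5:**
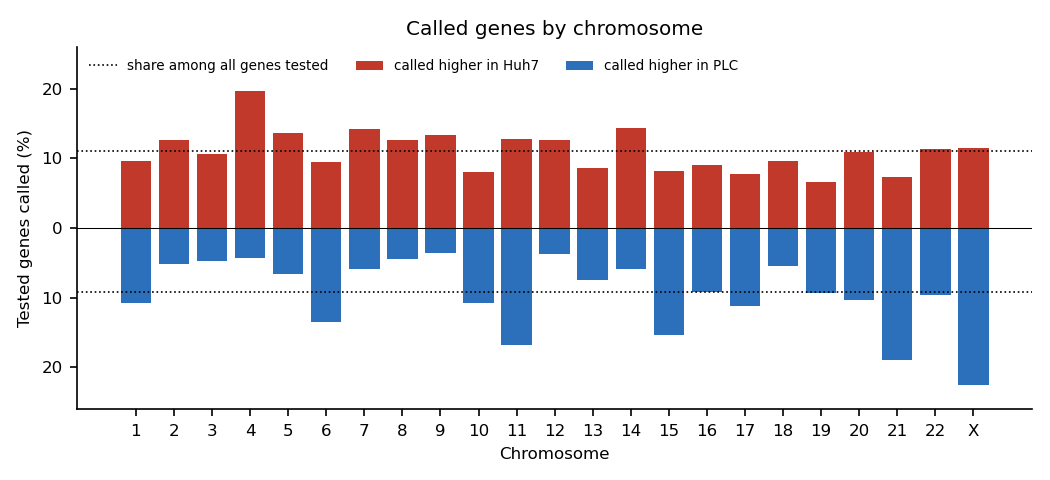
Share of tested genes called higher in Huh7 (red, up) or higher in PLC (blue, down) on each chromosome, with dotted lines at 11% and 9.18%, the shares among all genes tested. Chromosome 4 has the tallest red bar (19.7%) and the X chromosome the longest blue bar (22.5%).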

How the data were processed

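RNA was extracted with Trizol and libraries were made with a TruSeq RNA kit, per the labels' protocols. Per the submitters' processing notes, CASAVA 1.8.2, STAR 2.4.2g1, featureCounts and Subread were used with GRCh38; how the FPKM values were derived and whether strand was used are not stated there. The deposited table holds FPKM for 20030 genes in 10 libraries, with no counts, so depth is unknown. In 27 entries a symbol turned into a date was restored.

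FPKM were transformed as log2(FPKM + 1). Genes averaging 1 FPKM or more across the 4 Huh7 and PLC libraries were tested with limma 3.58.1 (lmFit, eBayes with a variance trend, two-sided) in R 4.3.3, fitted on 6 libraries (Huh7, PLC and 97H, each with control and the CDK4/6 inhibitor) with line and treatment as terms. This left 2 residual and 9.15 prior degrees of freedom. Benjamini-Hochberg adjustment ran over all genes tested, and genes under 0.05 were called. The replicate number in the fit is the treatment; pairing comes from the labels, and deviations of same-treatment libraries from their line means correlated at 0.16 (Pearson r). The fit was also run on simulated data with independent noise of equal spread for all genes, and without treatment effects or GC trends. That run therefore does not show how the fit behaves under the trends and unequal spreads of the real data.

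Named genes were the 12 called genes with the largest difference in each direction, the called and least different members of each list, the 8 highest genes near 0 in the other line, and the 5 with the largest opposite differences; further list members are also given. Some genes that these rules name are not reported here. The libraries, lists and rules were chosen with earlier results of these data known. Gene positions and GC content came from GENCODE 29 (97.2% of entries matched), promoters from RefSeq for 8638 tested genes.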

Additional observations from a re-analysis of the deposited data

Results flagged for a closer look

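For 5 genes the line difference in log2(FPKM + 1), Huh7 minus PLC, had opposite signs in the treatment pairs, and they were the most extreme of the 47 such genes by their smaller difference. A2M, the protease-trapping alpha-2-macroglobulin, differed by -1.70 in the control pair and 1.72 in the CDK4/6 inhibitor pair. HIST1H2AE, a histone H2A gene with near-identical copies, differed by 2.57 and -1.57. KIF4A, a chromosome-bound kinesin, differed by 1.50 and -1.81. PSMD1, a proteasome subunit, differed by 1.56 and -1.45, and NADK2, a mitochondrial NAD kinase, by 1.71 and -1.37. The PLC control was below the PLC CDK4/6 inhibitor library for PSMD1 (11.5 and 55.7 FPKM) and NADK2 (3.87 and 21.6 FPKM) and above it for A2M (385 and 81.8 FPKM). With 1 library for each line and treatment, the difference between the pairs was not tested.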

How the results depend on the processing

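Of 217 named genes that were called, 128 kept the call under all 16 alternatives, 5 kept it under the 15 that tested them, and 84 lost it under at least 1 (11 of the 217 were not tested with the filter set over all 10 libraries). The call was lost most often for CCND1 and FTH1 (9 each), ITGA1 (7), G6PC and GCLM (6 each); none of the 217 changed direction. Of 56 named genes not called, 18 were called under some alternative. Leaving out 1 library in turn gave 833 to 4974 called genes, 611 to 2956 higher in Huh7 and 222 to 2584 higher in PLC. For 7 genes not called, leave-one-out fits gave calls in opposite directions: A2M from -1.392 to 1.408, KIF4A from -1.664 to 1.358, PSMD1 from -1.558 to 1.667, NADK2 from -1.279 to 1.613, IL18 from -1.327 to 1.653, ITGB1 from -1.122 to 1.353 and TFRC from -1.293 to 1.179. The extremes came from leaving out a PLC library. In those fits the departure of PLC between treatments no longer entered the spread, and 1 residual degree of freedom was left. Removal of GC content and length trends gave 3436 calls (1751 higher in PLC), and the fit on all 10 libraries 3154 calls (1590 higher in PLC). Without the pairing by treatment (no replicate block) 1998 genes were called, 1892 of them shared with the 2106. Other alternatives gave 1860 to 2497 calls; with no filter on low values 64.5% of calls were higher in Huh7. The count of genes at least 1 log2 unit apart in both pairs ranged from 1968 to 2505. Depth is unknown, so the counting error of values near 0 FPKM cannot be given.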
